A study of Mus musculus with 250 samples.

Results

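S100 genes code for small proteins with a pair of EF hands, the loops that hold calcium ions. S100 proteins mostly act as dimers that open when calcium binds and then grip a target protein, and some are also secreted and act on receptors of neighbouring cells. In the brain S100b is best known as an astrocyte protein, and several members are also known from other tissues. The genes described here are S100b, S100a1, S100a6, S100a10, S100a13 and S100a16, 6 of the 24490 gene rows of the deposited count table. They were chosen by name, with earlier results of these cells known, and all 6 had reads.

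The data are full-length (Smart-seq2) transcriptomes of 250 single brain cells titled astrocytes, from C57BL/6 mice of about 3 months. All cells came from mice with SM22-Cre and a Rosa26-stop-tdTomato allele, in which Cre under the promoter of the smooth muscle gene Tagln (SM22) switches on a red reporter. Fluorescence-activated sorting placed the cells singly in plate wells. The sort gate, the number of animals and the animal of each cell were not stated in the labels. The column names carry the prefixes Brain.VSMC2 (162 cells, called plate 2 below) and Brain.VSMC3 (88 cells, plate 3), so the cells form 1 group on 2 plates. Cells of 1 animal are not independent, so every value below is a description of these cells without a test.

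The cells held 72773548 counted reads, with a median per cell of 256247 on plate 2 and 391072 on plate 3 and a range of 102161 to 564958. Of 12 astrocyte markers other than S100b, a cell had a median of 11 detected and at least 8. Gfap was the 1 marker under 50% of cells, detected in 32. In 49 cells (19.6%) at least 3 markers of some other brain cell type passed the detection limit given below, and 34 of these cells had at least 3 of 10 oligodendrocyte markers. Tagln was detected in 5 cells.

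S100b lies on chromosome 10, and the other 5 genes lie on chromosome 3 within the S100 gene cluster and beside it (GRCm38, the assembly that mm10 names, with GENCODE M21 genes). S100a1 occupies chr3:90511034-90514392 on the minus strand, and S100a13 chr3:90514435-90524581 on the plus strand, so these neighbours point away from each other with 42 bases between them. S100a16 (chr3:90537254-90543151) and S100a6 (chr3:90612882-90624181) follow on the plus strand, and these 4 genes span 113.1 kb. S100a10 (chr3:93555080-93564643, plus strand) lies a further 2.93 Mb along. S100b (chr10:76253853-76261159, plus strand) lies within Dip2a, a gene of the opposite strand, but shares 0 exon bases with it. Where the strand was not used in counting, reads of S100b introns and of Dip2a could not be told apart, and the strand setting is not stated in the labels. Dip2a was detected in 47 cells, 31 of which also had S100b.

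The sequences that show this arrangement are the short gap shared by S100a1 and S100a13 and the stretches just before S100a16, the nearest other member of the cluster, and before S100b, the member outside it. All come from RefSeq's GRCm38.p6 sequence, read on the plus strand, and capitals mark a CCAAT box (CCAAT on either strand).
S100a1 to S100a13 gap, chr3:90514393-90514434: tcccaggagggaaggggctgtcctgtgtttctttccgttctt
S100a16, chr3:90537004-90537253: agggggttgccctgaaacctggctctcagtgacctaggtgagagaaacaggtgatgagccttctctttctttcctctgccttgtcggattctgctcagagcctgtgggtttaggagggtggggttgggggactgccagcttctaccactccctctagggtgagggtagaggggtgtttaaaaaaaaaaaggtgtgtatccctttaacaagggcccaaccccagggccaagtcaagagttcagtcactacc
S100b, chr10:76253586-76253835: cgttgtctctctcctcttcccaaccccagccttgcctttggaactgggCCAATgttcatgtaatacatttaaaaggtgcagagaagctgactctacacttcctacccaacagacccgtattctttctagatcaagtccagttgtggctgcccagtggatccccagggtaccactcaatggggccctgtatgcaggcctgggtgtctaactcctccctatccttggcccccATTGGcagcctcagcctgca
The 250 bases before S100b held 2 CCAAT boxes, 202 and 20 bases before the RefSeq start, and the stretch before S100a16 and the gap held none of the letters searched. RefSeq promoter entries run from 250 bases before a start to 50 after it, and the 250 bases before the start were searched on both strands. Of all 32851 entries, 33.85% held the letters CCAAT in these 250 bases. The letters GGGCGG, a GC box, were in 32.74% of entries. The letters TATAAA were in 12.37%. Of the 5 members with an entry, S100b and S100a6 had a CCAAT box, S100a16 had a GC box in another of its entries, and none had the third motif. A match of letters says nothing of what binds there.

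S100b, whose protein binds the cytoskeleton, p53 and the kinase Stk38 and is also secreted, had the highest mean and the widest range in counts per 1000000 reads (CPM). It ran from 0 to 3202 CPM over the 250 cells, with quartiles of 16.3 and 489.9, a median of 147 and a mean of 301 ± 374 CPM (SD between cells). Detection means a level of at least 10 CPM, which S100b reached in 192 cells (76.8%, exact 95% interval 71.1 to 81.9%). In detecting cells the lower quartile was 71.3 and the upper quartile 598 CPM, so cells with S100b differed widely in its level. The cell with the highest value, on plate 3, had 0 reads of the other 5 members.

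S100a1, known in heart muscle as a partner of the calcium pump Atp2a2 and the ryanodine receptor, was detected in more cells than any other member. It ran from 0 to 1466 CPM with a median of 216 and a mean of 276 ± 265 CPM. It was detected in 202 cells (80.8%, 75.4 to 85.5%), an interval that overlaps that of S100b, read in the same cells. Its CV (SD over mean), at 0.960, was the lowest of the 6 members.

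S100a16, a widely expressed S100 protein whose first EF hand is altered, was the third abundant member. It ran from 0 to 2132 CPM with a median of 189 and a mean of 242 ± 288 CPM. It was detected in 172 cells (68.8%, 62.7 to 74.5%). The cells highest and next highest in S100a16, at 2132 and 1610 CPM, both had 0 reads of S100b and had 526 and 480 CPM of S100a1. The cells that followed, at 1532 and 1254 CPM of S100a16, had 1068 and 1234 CPM of S100b. S100a16 and S100b were both detected in 132 cells, where independent detection gives 131.8.

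S100a13, which takes part in the release of Fgf1 from cells without a signal peptide, was present in fewer than 50% of cells and at a lower level. It ran from 0 to 434 CPM, with a median of 0 and a mean of 48.8 ± 76.3 CPM. It was detected in 113 cells (45.2%, 38.9 to 51.6%), and the median of the detecting cells was 78.7 CPM. Its spread was low for its level, since its squared CV lay at the 4.19 percentile of 12446 genes on plate 2 and at the 3.39 percentile of 12032 genes on plate 3, each set against genes of like mean.

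S100a6 and S100a10 were in a minority of cells, and much of their signal sat in a few. S100a6 (calcyclin), which binds the ubiquitin ligase partner Cacybp, had a mean of 27.4 ± 81.6 CPM, a median of 0 and a highest cell of 929 CPM, and was detected in 55 cells (22.0%, 17.0 to 27.7%). S100a10 (p11), which has lost calcium binding and pairs with annexin A2, had a mean of 11.6 ± 54.3 CPM, a median of 0 and a highest cell of 658 CPM, and was detected in 23 cells (9.2%, 5.92 to 13.5%). The 25 cells highest in each gene held 75.6% of the summed CPM of S100a6, beside 30.9% for S100a1. The highest cell alone held 22.6% of the summed CPM of S100a10. Where S100a6 and S100a10 were detected, their median levels of 106 and 107 CPM were above the 78.7 CPM of S100a13. Leaving out the 49 cells with markers of another type left S100a6 in 22.9% and S100a10 in 10.9% of cells, with means of 30.8 and 13.5 CPM. Of 8 genes of other tissues, chosen as genes that brain cells should lack, 5 had no reads, Sftpc was detected in 1 cell, Ins2 in 3 and the heart myosin gene Myh6 in 68 at a mean of 22.4 CPM. S100a6 and S100a10 were thus both in fewer cells than Myh6, and whether part of their reads came from outside the cell was not tested.

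S100b, S100a1 and S100a16, 3 of the 6 members, passed 50% of cells, as did 5.92% of the 16367 genes with a read. The members were named with their levels known, so this count stands as a description. The remaining S100 genes were nearly silent. Of 10 other S100 genes and the S100-binding protein gene S100pbp, 0 were detected in at least 50% of cells. No reads at all were found for 5 of them (S100a3, S100a5, S100a8, S100a9 and S100z). For these, 0 of 250 cells, read as up to 3 counts, gives a limit of 1.2%, or 1.46% as the exact upper bound. S100a2, a further S100 gene outside this count, also had no reads. S100a4, a neighbour of S100a6 known from motile cells and fibroblasts, was detected in 5 cells at a mean of 4.06 CPM, S100a11 in 3 cells, S100a14 and S100a7a in 2 each, S100pbp in 14, and S100g had 1 read. S100a14, which lies between S100a13 and S100a16, was therefore detected in 2 cells while its neighbours were in 113 and 172, and S100a5, which lies 1101 bases from S100a6, had no reads.

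**Figure D1:**
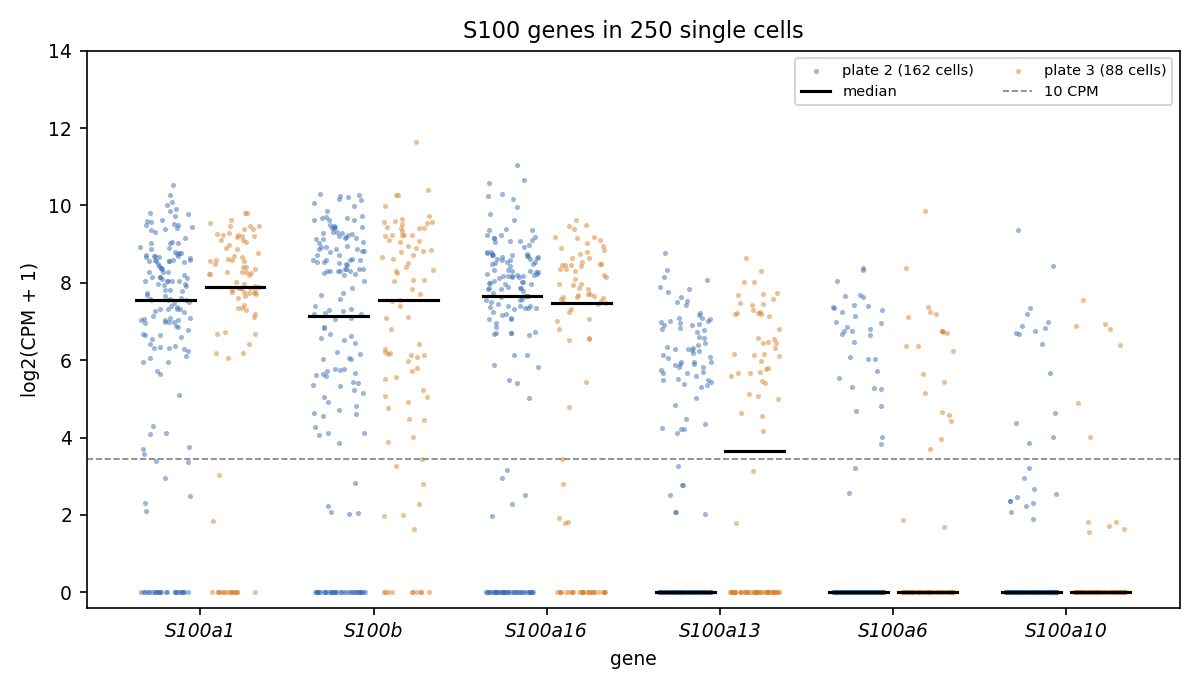
Level of each S100 gene in each of the 250 cells, as log2(CPM + 1) on the vertical axis, with plate 2 and plate 3 side by side and their medians as bars. S100a1, S100b and S100a16 have medians well above the dashed line at 10 CPM on both plates, while S100a6 and S100a10 have medians of 0 and a few cells that reach 929 and 658 CPM.

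Longer transcripts give more reads in full-length libraries, so the members were put in order per kilobase of exon. S100a1 came first at 398 ± 382 CPM per kb (SD between cells), followed by S100b at 203 ± 252 and S100a16 at 168 ± 200. S100a13 had 68.2 ± 107 CPM per kb, S100a6 33.9 ± 101 and S100a10 14.5 ± 67.7. The SD between cells exceeded the gap between each pair of neighbours in this order, but it is not the error of a mean. By the median, S100a16 at 131 CPM per kb stood above S100b at 99.3, so the order of these members depends on the summary used. S100a1 exceeded S100b per kb in 154 cells and was below it in 86, while S100b exceeded S100a16 in 121 cells and was below it in 116.

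The leading member, the highest in a cell by any margin, differed between cells. Per kb of exon, S100a1 was the highest of the 6 in 131 cells (52.4%), S100b in 58 (23.2%) and S100a16 in 41 (16.4%). S100a13 led in 9 cells, S100a6 in 7 and S100a10 in 2, and 2 cells had no read of any member. S100a16 led in 20.4% of the cells of plate 2 and 9.09% of those of plate 3. The summed CPM of the members was 907 ± 587 per cell, with a median of 789 and a range of 0 to 3544. S100b made up 33.2% of this sum over all cells, S100a1 30.5%, S100a16 26.6%, S100a13 5.38%, S100a6 3.03% and S100a10 1.28%.

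For their level, S100a1, S100a13 and S100a16 did not stand among the variable genes, and S100b did so on 1 plate through 1 cell. The squared CV of S100a1 lay at the 14.9 and 6.75 percentiles of genes of like mean on plates 2 and 3, and that of S100a16 at the 30.7 and 9.03 percentiles. S100b lay at the 27.3 percentile on plate 2 and the 72.4 percentile on plate 3, where it fell to the 39.0 percentile without its highest cell. S100a6 lay at 8.19 and 58.3, and at 10.5 on plate 3 without the highest cell, and S100a10 at 43.2 and 11.5.

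S100b, S100a1 and S100a16, the 3 abundant members, were detected together in 113 cells (45.2%, 38.9 to 51.6%), and at least 2 of them in 208 cells (83.2%). At least 3 of the 6 members were detected in 175 cells (70.0%, 63.9 to 75.6%), with a median of 3 per cell. The commonest combination was S100b, S100a1, S100a13 and S100a16, in 46 cells (23 on each plate). S100b, S100a1 and S100a16 without the others followed in 36 cells, 28 on plate 2 and 8 on plate 3, and S100b, S100a1 and S100a13 in 18. In all, 38 combinations occurred. The 3 cells with all 6 members had 316, 326 and 690 CPM of S100b and 102, 13.6 and 83.1 CPM of S100a10.

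The number of cells with at least 3 members lay near that of independent detection, while the spread of the number was somewhat wider. From the shares on each plate, independence gives 176.5 cells with at least 3 members, where 175 were seen. Cells with 1 member numbered 21 where independence gives 14.7, and those with 2 numbered 52 where it gives 57.5. The variance of the number per cell was 1.17 on plate 2 and 1.40 on plate 3, beside 1.05 under independence on each. The number of members followed the number of all genes detected in the cell, with a Spearman rho over cells of 0.311 on plate 2 and 0.194 on plate 3, and the part of detection depth in co-detection was not tested.

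**Figure D2:**
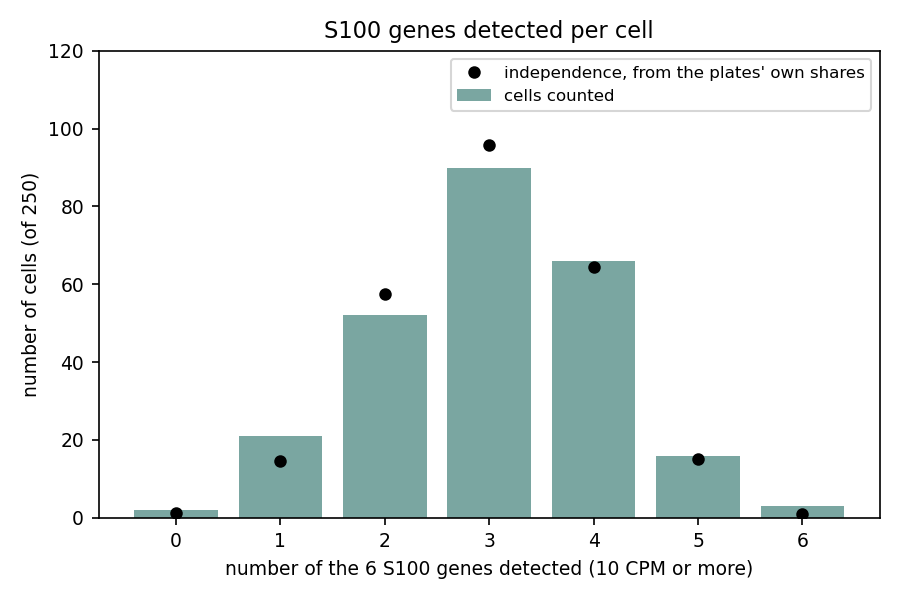
Number of cells (vertical axis) with 0 to 6 of the 6 S100 genes detected at 10 CPM or more (horizontal axis). Bars are cells counted and dots are the numbers that independence gives from the shares on each plate. Bars and dots lie close, with 90 cells at 3 genes where independence gives 95.8.

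Pairs of members were likewise detected together about as often as independence gives, with ratios of observed to independent cells from 0.776 to 1.19. S100b and S100a1, whose proteins can form mixed dimers, were both detected in 156 cells where independence gives 155.1. S100a13 and S100a16 were both in 84 cells where it gives 77.4, and S100a1 and S100a13 in 98 where it gives 91.3. S100a6 and S100a13 were both in 21 cells where it gives 25.0.

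No pair of members passed a low threshold of correlation on both plates, and the pairs near it depended on the setting. Spearman rho was computed over the cells of each plate, in which both genes of a pair are read from the same library at the depth of that cell. On this measure 0 of the 15 pairs had a rho of at least 0.1 on both plates. Over all pairs of a member with any of 3564 genes tested, 2.97% did, so a count of 0 among 15 is near that background and sets the members apart in neither direction. Under 4 of the 7 alternatives the count was 1, 1, 2 and 3 pairs, where the 2 were among 12 pairs with enough cells. A rho of -0.1 or lower on both plates was found for 0 of the 15 pairs and for 1.48% of all pairs. Of the 15 pairs, 7 were positive on both plates and 9 had the same sign. The sparse counts of S100a6 and S100a10 make weak values of rho uninformative, and with 162 and 88 cells modest co-variation could be missed.

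S100a13 and S100a16 came nearest to the threshold. Their rho was 0.0995 over 162 cells on plate 2 and 0.394 over 88 cells on plate 3. On plate 3 no tested gene had a higher rho with S100a16 than S100a13 did, and 1 gene had a higher rho with S100a13. On plate 2, however, 394 genes had a higher rho with S100a16 and 548 with S100a13. In cells with a read of both genes, the rho was 0.285 over 57 cells on plate 2 and 0.286 over 40 cells on plate 3. Without the 49 cells with markers of another type it was 0.136 and 0.354. The difference between the plates was not tested.

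The neighbours S100a1 and S100a13, which share the gap printed above, had a rho of 0.07 on plate 2 and 0.242 on plate 3. In cells with a read of both it was -0.066 over 67 cells and 0.141 over 41 cells, so the positive values over all cells did not carry over to their levels on plate 2. S100a1 and S100a16 had 0.033 and 0.236. S100b had 0.081 on each plate with S100a1, and its lowest value was -0.15 on plate 2, with S100a6, a pair at -0.069 on plate 3. S100a1 and S100a6 changed sign between the plates, from 0.093 to -0.17. Chtop, the neighbour of S100a1 on its other side, had -0.078 and -0.135 with S100a1, and Prmt2, beside S100b, had 0.025 and 0.004 with S100b.

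**Figure D3:**
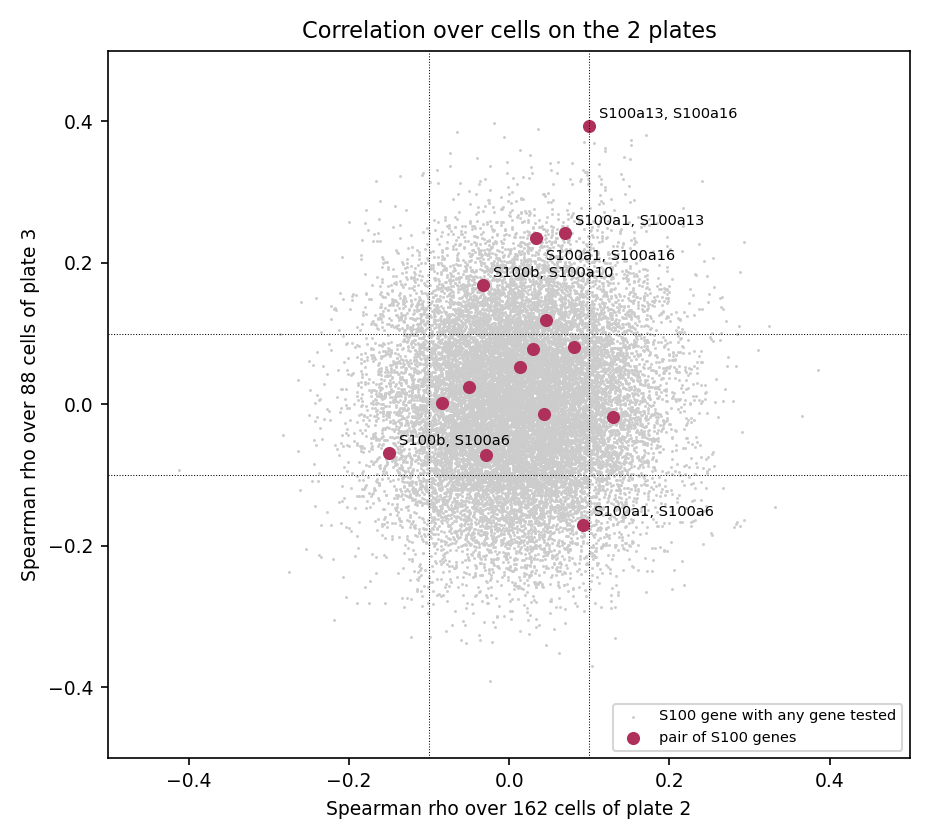
Spearman rho over the cells of plate 2 (horizontal axis) and of plate 3 (vertical axis) for the 15 pairs of S100 genes (large points) and for every pair of an S100 gene with a tested gene (small points). Dotted lines mark 0.1 and -0.1. No large point lies beyond 0.1 on both axes, and the pair of S100a13 and S100a16 is highest on plate 3 at 0.394.

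Known partners of the members were present unevenly. Of 22 receptors, partners and targets of S100 proteins, 2 passed 50% of cells, beside 5.92% of all genes with a read, Atp2a2 in 236 at 703 ± 519 CPM and the adhesion protein gene Alcam in 129. Fgf1, which is released with S100a13, was in 108 cells at 163 ± 284 CPM, Stk38 in 81 and Cacybp in 57. Ager, the receptor of secreted S100b (RAGE), was in 3 cells, the S100a10 partner Ahnak in 16, and the serotonin receptor gene Htr1b, whose protein binds p11, had no reads. Synaptotagmin Syt1, the third protein of the Fgf1 release complex, was in 11 cells. The p53 gene Trp53 was in 46 cells and the ryanodine receptor genes Ryr1, Ryr2 and Ryr3 in 1 to 3 cells each, so of these muscle targets of S100a1 only Atp2a2 was in at least 50% of cells.

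Annexins, the membrane-binding proteins that several S100 dimers grip, were also uneven. Of 12 annexin genes, Anxa5 alone passed 50% of cells, beside 5.92% of all genes with a read. Anxa5 was in 136 cells at 283 ± 430 CPM, and Anxa6 was in 104 at 164 ± 278 CPM. Anxa2, the partner of S100a10, was in 14 cells at 5.74 ± 34.0 CPM, so both partners of the annexin A2 and p11 complex were low. Anxa1 was in 1 cell, and Anxa10 and Anxa13 had no reads.

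Among other EF-hand genes, 5 of 22 passed 50% of cells, again beside 5.92% of all genes. Calm3, which codes for calmodulin, was in 137 cells at 97.4 ± 140 CPM. Rcn2, of the endoplasmic reticulum, was in 227 cells, and the secreted matrix proteins Sparcl1 and Sparc in 250 and 247. The neuronal EF-hand genes Calb1, Calb2 and Pvalb were in 2, 5 and 5 cells. Of 13 genes of calcium signalling, 2 passed 50%, Itpr2, the main calcium release channel of astrocytes, in 153 cells and the phospholipase gene Plcb1 in 173.

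Correlations of the members with these lists were weak. With the partners tested, S100b had a rho of -0.22 and -0.31 with Atp2a2 on plates 2 and 3 and of 0.10 and 0.13 with Stk38. S100a1 had -0.05 and 0.03 with Atp2a2. S100a13 had 0.05 and 0.15 with Fgf1. S100a1 reached 0.1 on both plates with 3 of the 11 EF-hand genes tested, among them Calm2 at 0.12 and 0.21 and sorcin (Sri) at 0.11 and 0.11, where 3.87% of all tested genes did so with S100a1. Sparc, another of the 11, was at -0.21 and -0.14. The median over the 11 genes was 0.01 and 0.10 for S100a1, beside 0.01 and 0.02 over all genes tested.

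Several markers of astrocytes outside the telencephalon had negative values with S100b and S100a1. Of the 5 tested, 3 had a rho of -0.1 or lower with S100b on both plates, at -0.12 and -0.12 for the GABA transporter gene Slc6a11, -0.11 and -0.23 for Agt and -0.13 and -0.13 for Itih3, where 1.63% of all genes did. Their median with S100b was -0.12 on plate 2 and -0.13 on plate 3, beside 0.02 and -0.003 over all genes. With S100a1, 2 of the 5 did, Sparc at -0.21 and -0.14 and Itih3 at -0.21 and -0.14, where 1.07% of all genes did. Mfge8, the only 1 of 4 telencephalic markers tested, was also negative, at -0.12 and -0.16 with S100b and -0.11 and -0.11 with S100a1. A single gene cannot show whether the values separate the regional lists. The lists were chosen with earlier results of these data known and their genes are not independent, so these counts stand as a description.

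**Figure D4:**
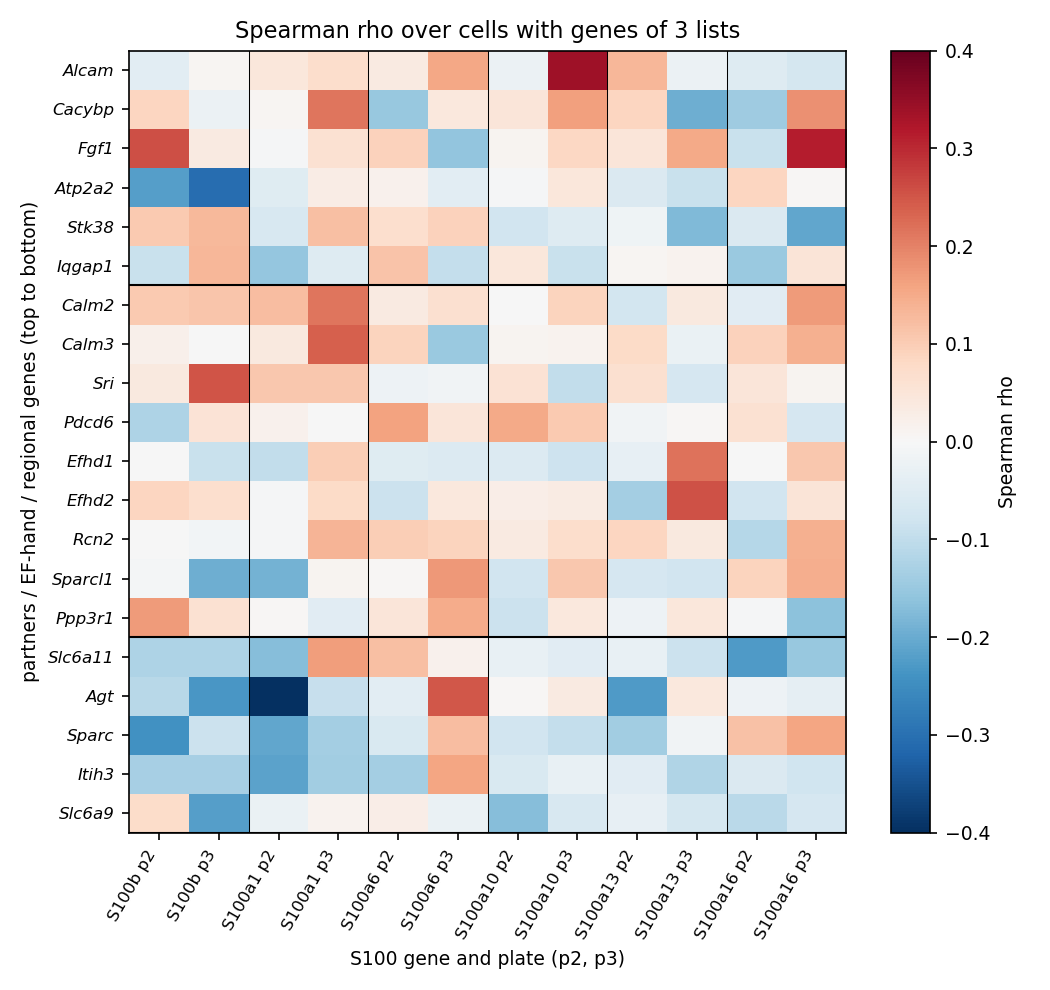
Spearman rho over cells of each S100 gene (columns, plate 2 and plate 3 side by side as p2 and p3) with tested genes of 3 lists (rows, without 1 EF-hand gene that is not reported), from S100 partners at the top through other EF-hand genes to markers of non-telencephalic astrocytes at the bottom. Blue is negative and red positive. Most squares differ between the plates, while S100b with Atp2a2 is negative on both, at -0.22 and -0.31.

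The genes most like a member, by the smaller of its rho on the 2 plates, differed between members, and that smaller rho was below 0.3 for each. They were sought among genes detected in at least 20% of the cells of each plate. For S100b they were Atp5g3, a subunit of the mitochondrial ATP synthase (0.241 and 0.315), the growth factor binding protein gene Igfbp2 (0.294 and 0.23), Bcap31, the glycogen phosphorylase gene Pygm (0.215 and 0.217) and Nwd1. The most opposed were the anchoring protein gene Akap6 (-0.275 and -0.237) and Atp2a2. For S100a1 they were the respiratory complex gene Ndufc1 (0.237 and 0.227), Zer1, the glutathione transferase gene Gstm5 (0.201 and 0.22), the claudin gene Cldn10 (0.185 and 0.257) and Ngly1. For S100a13 they were 9030624J02Rik, Pgpep1, the mitochondrial fission gene Dnm1l, the metallothionein gene Mt1 (0.232 and 0.184) and Wnt7a. For S100a16 they were Nudcd3, the cold-inducible RNA-binding protein gene Cirbp, Ddah1 (0.17 and 0.192), Cnpy2 and Golph3. For the sparse S100a6 and S100a10 the first were Aldh7a1 and Akt1s1.

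Over all tested genes, the values of rho did not carry over between the plates. The genes named above were picked by their rho on both plates, so their like values are no sign of carry-over. Across genes, which are not independent, the rho with a member on plate 2 barely tracked that on plate 3, with a rank correlation of -0.009 for S100a10 to 0.065 for S100a13. The share of tested genes with a rho of at least 0.1 on both plates was 3.87% for S100a1, 3.54% for S100a13, 3.26% for S100b, 3.03% for S100a10, 2.27% for S100a6 and 1.85% for S100a16. At -0.1 or lower the shares were 2.53% for S100a16, 1.63% for S100b, 1.46% for S100a6, 1.12% for S100a13, 1.07% for S100a10 and 1.07% for S100a1. S100a16 was the 1 member with more genes on the negative than on the positive side.

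None of the 6 members had means 2-fold apart between the plates. Of 12651 genes, 10.8% were at least 2-fold higher on plate 3 and 16.5% were at least 2-fold lower. With only 6 members, a count of 0 does not set them apart from these shares. The log2 ratio of means, plate 3 over plate 2, was 0.28 for S100b (280 ± 324 and 340 ± 452 CPM), 0.16 for S100a1 and 0.43 for S100a13, beside a median of -0.05 over all genes. S100a16 was lower on plate 3 at -0.39 (263 ± 321 and 201 ± 209 CPM). S100a10 was at -0.85, on 16 and 7 detecting cells. S100a6 was at 0.30 (25.4 ± 61.5 and 31.2 ± 110 CPM), which became -0.17 without the highest cell of each plate and 0.71 with size factors. Each of these gaps was smaller than the SD between cells, which is not the error of a mean.

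S100b and S100a1 were detected in 71 cells each on plate 3, while the order of the other members was the same on both plates. S100a1 was detected in 80.9% of the cells of plate 2 and 80.7% of those of plate 3, and S100b in 74.7% and 80.7%, so S100a1 was ahead on plate 2 only. S100a16 was in 71.6% and 63.6%, S100a13 in 42.6% and 50.0%, S100a6 in 21.0% and 23.9% and S100a10 in 9.88% and 7.95%. With every cell thinned to 100000 reads, where a single read reaches 10 CPM, the shares were 75.9% and 81.8% for S100b. They were 82.7% and 80.7% for S100a1 and 72.8% and 65.9% for S100a16. The part of read depth in the differences between the plates was not tested.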

How the data were processed

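The deposited count table holds whole-number reads per gene for 250 cells, not normalized, as its values show. The authors' other deposited table is a score, the count scaled to 500000 per cell and rounded (100% of 6122500 entries within 0.5 of that), and served as an alternative. STAR 2.4.2a and the mm10 build are named, per the submitters' processing notes. The counter, its strand setting and the annotation were details not given in the sources used here. No cell was removed, 0 cells were identical, and 0 columns were unused. No doublet caller was run on these sorted wells. In its place, cells with markers of another type were left out as an alternative.

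CPM is the count over the cell's total, scaled to 1000000. Lengths are exons of basic coding transcripts of GENCODE M21. Variability is the squared CV over a running median of 201 genes. Exact (Clopper-Pearson) intervals at 95% cover the counting of cells only and take cells as independent, which cells of 1 animal are not. Reads include PCR copies that are not independent molecules, and this method has no molecular identifiers. Genes with 10% or more of their total in 1 cell were left out of the tested genes. The text names members, listed genes, annotated neighbours and, per member, the 5 highest and 2 lowest genes by the weaker plate's rho. Values of 1 listed gene are not reported here. Members and lists were chosen with earlier results of these data known. The calculations were tested on simulated data. Python 3.11.15, pandas 2.3.3, numpy 2.4.6 and scipy 1.17.1 were used.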

Additional observations from a re-analysis of the deposited data

How the results depend on the processing

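Of 363 values recomputed under alternatives, 322 stayed within limits chosen here for each kind of value and 41 moved. For a rho the limit was a change of 0.1, so a weak rho could change sign and stay within it. Of the values that stayed, 6 were means of the authors' table, which holds the same counts rescaled, so they were bound to stay. None of the values was called by a test, but signs changed for 22 of 206 recomputed rho values, 7 of them over cells with a read of both genes, and for 1 of 30 plate ratios (S100a6). The number of member pairs with a rho of at least 0.1 on both plates, 0 as reported, was 1 by Pearson r of log2(CPM + 1) (S100a1 and S100a13, 0.107 and 0.24). It was 1 with Malat1 and Rn45s left out of the total (S100a13 and S100a16, 0.103 and 0.397). Without the cells with markers of another type it was 3 (these pairs, and S100a1 with S100a16 at 0.125 and 0.236). Over cells with a read of both genes, 12 of the 15 pairs had 10 or more such cells on both plates. Of these 12 pairs, 2 passed (S100a13 with S100a16, and S100a6 with S100a13 at 0.226 and 0.273 over 14 and 11 cells). The number of pairs stayed 0 with thinned cells, with size factors and given reads and genes detected. The cause was not tested. The count of 3 members in at least 50% of cells and that of 0 members 2-fold apart between the plates were the same under every alternative run. Cells with at least 3 members numbered 135 at a threshold of 50 CPM and 192 at 1 read. At 50 CPM S100b was in 63.6% of cells and S100a13 in 33.6%, and at 1 read S100a10 was in 15.6%. The S100a10 plate difference was -0.21 as a difference of mean log2(CPM + 1). With all annotated exons, chosen after seeing the data, S100a6 had 20.1 and S100a10 9.60 CPM per kb, in the same order. Of the 5 genes most like a member, 2 or 3 were again among the first 5 by Pearson r. With no animal named the cells give no biological error. No paired analysis was possible because the cells form 1 group and the result comes from no test.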
